A study of Mus musculus with 26 samples.

Results

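The genes of the Kv4 A-type potassium channel complex were followed across 26 single mouse retinal amacrine cells. They comprised 9 of the 18194 genes measured, namely the pore-subunit genes Kcnd1, Kcnd2 and Kcnd3, the KChIP genes Kcnip1, Kcnip2, Kcnip3 and Kcnip4, and the DPP-like genes Dpp6 and Dpp10. The set was put together by name, except that Kcnip1 entered as the best partner of Gad1 by detection in these same cells. The values of Kcnip1 beside Gad1 are therefore given as a description. Each gene was read from 1 probe set, the one with the highest mean log2 signal over the 26 cells, and counted as detected where its signal reached 1000, which is 2 times the mean signal to which every array had been scaled.

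Kv4 channels open below the threshold for spikes and inactivate quickly, and the A-type current they carry delays firing and shapes how signals spread in dendrites. Their pore is built from the proteins of Kcnd1 (Kv4.1), Kcnd2 (Kv4.2) or Kcnd3 (Kv4.3). KChIPs are EF-hand calcium-binding proteins that attach to the cytoplasmic end of the pore subunits and, for most forms, raise their surface level. DPP6 and DPP10 are single-pass membrane proteins related to dipeptidyl peptidases but without enzyme activity, and they speed up the gating of the channel.

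Amacrine cells, the inhibitory interneurons that link bipolar and ganglion cells, are diverse, and the study set out to find markers of their many classes. Green fluorescent protein driven by the Ndrg4 promoter (pNdrg4) or the Synapsin promoter (pSynapsin) was electroporated into retinas, and fluorescent cells were then picked by hand. The RNA of each cell was copied from an oligo dT primer, amplified over 35 cycles of PCR and hybridised to 1 Affymetrix 430 2.0 array. The reporter therefore decided which cells were sampled, and the strain and genotype of the mice are not given in the sources used here.

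The cells formed 7 groups. At E19 there was 1 pSynapsin cell, cultured for 4 days, although the study describes electroporation at P0, so the meaning of that age label is uncertain. At P4 there were 2 pNdrg4 cells, cultured for 4 days. At P5 there were 4 pSynapsin cells cultured for 5 days, 5 pNdrg4 cells cultured for 5 days, and 10 pNdrg4 cells for which no culture was stated. At P8 there were 2 pSynapsin and 2 pNdrg4 cells, all cultured for 8 days. Cell names such as A1 or B3 were used again in different groups, so a cell is named below with its group. Because the labels tie no cell to an animal, retina or dish, each group was treated as a single sample and no test was made. An SD over cells is a spread, and precision is limited by the number of arrays.

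All 26 cells had Pax6, a transcription factor that amacrine cells keep, above the detection level. Between 1910 and 4181 genes were detected per cell, with a median of 3254.5. At P5 the group median was 3473 genes in the pSynapsin cells, 3257 in the cultured pNdrg4 cells and 2362.5 in the 10 pNdrg4 cells without a stated culture. Markers of other retinal cells were present in many cells, and their levels are given beside the results they moved with.

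The sequences before the listed starts of Kcnip1 and Kcnip3 are shown because these were the KChIP genes that between them covered most cells. Each is the 250 bases before the outermost start listed for the gene by RefSeq (GRCm38.p6), written 5′ to 3′ on the strand of the gene, with every match to the E-box motif CANNTG in capitals (N is any base, and the motif reads the same on both strands). The regions are chr11:33993194.0-33993443.0 and chr2:127522095.0-127522344.0, both on the minus strand.
Kcnip1: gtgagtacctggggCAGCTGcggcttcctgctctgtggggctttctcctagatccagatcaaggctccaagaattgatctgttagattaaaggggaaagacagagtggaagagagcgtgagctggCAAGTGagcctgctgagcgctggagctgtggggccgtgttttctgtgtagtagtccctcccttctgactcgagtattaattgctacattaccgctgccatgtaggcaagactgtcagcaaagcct
Kcnip3: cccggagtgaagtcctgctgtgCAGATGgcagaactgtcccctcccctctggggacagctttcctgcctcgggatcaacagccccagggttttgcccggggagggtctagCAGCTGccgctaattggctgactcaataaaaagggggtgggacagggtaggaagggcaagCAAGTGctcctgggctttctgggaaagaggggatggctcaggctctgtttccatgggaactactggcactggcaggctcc
The Kcnip1 stretch held 2 E-box matches, 6 CpG dinucleotides and 52.8% GC, and the Kcnip3 stretch held 3 E-box matches, 4 CpG dinucleotides and 60.0% GC. Such matches were common, since 66.2% of the 32851 promoter stretches of the same length in the table held at least 1. The TATAAA motif, searched on both strands, was in neither stretch and in 12.4% of all of them. Of the 9 genes, 8 were in the promoter table, and Kcnd1 was not matched. Both genes have 3 listed starts, and an array that reads copies made from the poly(A) end does not show which start a cell used.

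The family was carried by 4 genes. Kcnd3 was detected in 15 cells, Kcnip1 in 12, Dpp6 in 12 and Kcnip3 in 11, while Kcnd1 was detected in 2 cells, Kcnip2 and Dpp10 in 1 cell each, and Kcnip4 and Kcnd2 in none. Thus 7 of the 9 genes were detected in at least 1 cell, where 55.9% of all genes were, and 5 in at least 2 cells, where 47.1% were. In at least 11 cells 4 of the 9 were detected, against 15.5% of all genes. That cut is the count of Kcnip3, the lowest of the 4, so the contrast is no result about the members. Kcnip1 was chosen on these values, so its part in the counts is no result.

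**Figure D1:**
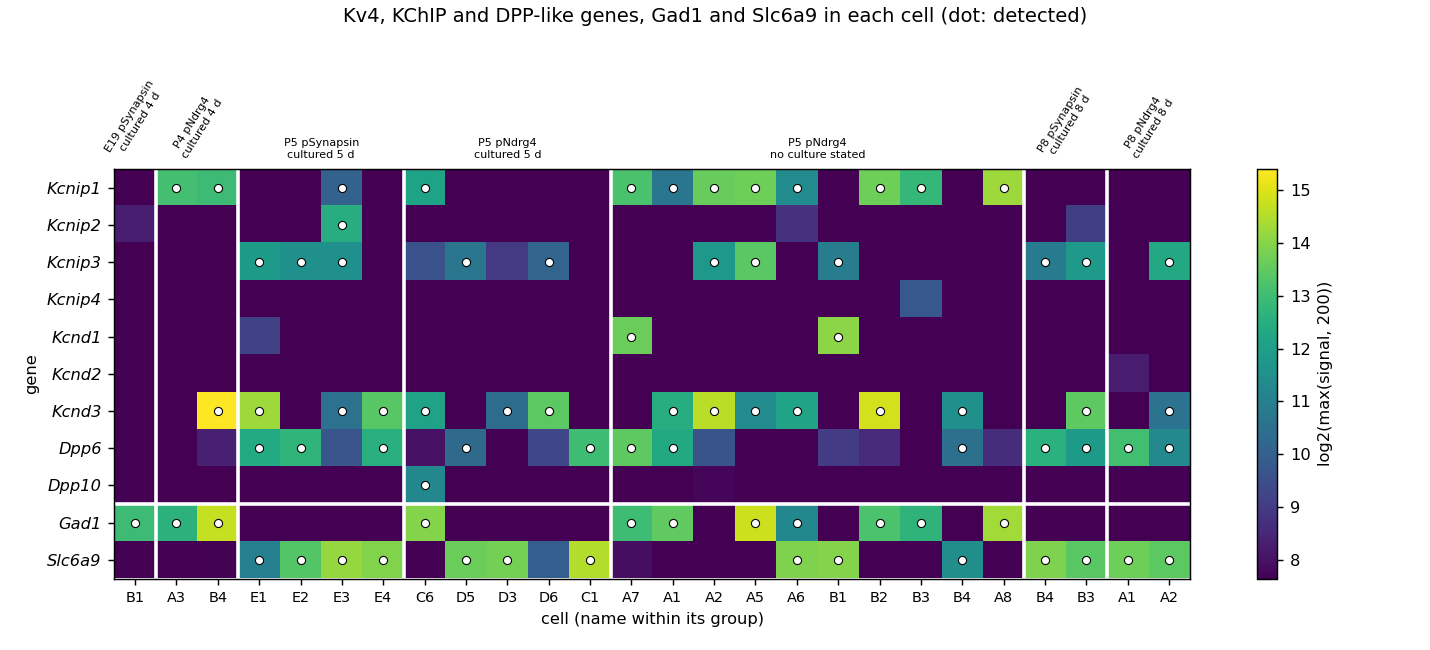
Signal of the 9 channel-complex genes, and of Gad1 and Slc6a9 for orientation, in each of the 26 cells. Columns are cells in their 7 groups, rows are genes, colour is log2 of the signal after raising signals under 200 to 200, and a dot marks a signal of at least 1000. Kcnip1, Kcnip3, Kcnd3 and Dpp6 each have dots in 11 to 15 cells, and the other 5 genes have dots in 0 to 2.

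Among the pore subunits, Kcnd3 was the gene that most of the cells with a Kv4 signal carried. It was detected in 15 of 26 cells, or 57.7% (exact Clopper-Pearson interval at 95%, 36.9 to 76.6%, for counting error only). Its signal was 48 in the E19 cell, and 43449 and 9 in the P4 pNdrg4 cells B4 and A3. The 4 P5 pSynapsin cells had 19550, 10813, 1495 and 116, and the 5 cultured P5 pNdrg4 cells had 11282, 4431, 1345, 33 and 6. The pattern was of all or none within these groups, with high and very low cells side by side. In the 10 pNdrg4 cells of P5 without a stated culture Kcnd3 ranged from a lowest signal of 15 through a median of 2814 to a highest of 30200, and 6 of the 10 were above the detection level. The P8 pSynapsin cells had 11371 and 38, and the P8 pNdrg4 cells had 1568 and 4. Over all cells no Kcnd3 signal lay between 116 and 1345, so any level between these values gives the same count. Where detected, its median signal was 5726. The gene has 4 probe sets, and the others were above the level in 0 cells, at highest signals of 461, 160 and 637.

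Kcnd1 was detected in 2 of 26 cells (7.69%, interval 0.946 to 25.1%). Both were P5 pNdrg4 cells with no culture stated, B1 with a signal of 17116 and A7 with 12923. The highest signal in any other cell was 572, in P5 pSynapsin cell E1. The 2 cells with Kcnd1 lacked Kcnd3, at 69 in B1 and 16 in A7. A second probe set of Kcnd1 was above the level in 1 different cell, E1, at 2172, and that cell did have Kcnd3.

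Kcnd2, the gene of Kv4.2, was detected in 0 of 26 cells. The exact interval for that count reaches 13.2%, and the limit of 3 cells used for a count of 0 allows a share of up to 11.5%. Its highest signal was 305, in P8 pNdrg4 cell A1, and 25 of the 26 cells were under 200. Counting the 3 genes together, 17 cells had a Kv4 gene detected with the probe sets used, and none had more than 1.

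Of the KChIP genes, Kcnip1 and Kcnip3 were each detected in many cells. Kcnip1 encodes KChIP1. It was detected in 12 of 26 cells (46.2%, interval 26.6 to 66.6%), with a median signal of 8275 where detected. Its signal was 138 in the E19 cell and 8635 and 7916 in the P4 pNdrg4 cells. In the P5 pSynapsin cells it was 1093, 72, 63 and 26, and in the cultured P5 pNdrg4 cells 4532, 148, 81, 18 and 2. Both cultured P5 groups thus had 1 cell above the level and the rest far below it. The 10 pNdrg4 cells of P5 without a stated culture ranged from 20 through a median of 8163 to 19953, with 8 of them detected. The P8 pSynapsin cells had 36 and 31, and the P8 pNdrg4 cells had 58 and 31, so no P8 cell had Kcnip1. Just inside the level lay E3 at 1093 and cell A1 with no culture stated at 1667, and just outside lay cultured P5 pNdrg4 cell D6 at 148 and the E19 cell at 138.

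A second probe set of Kcnip1 was above the level in 8 cells, all of them among the 12, and its log2 signals had a Pearson correlation of 0.86 with those of the probe set used over the 26 cells. The other 2 probe sets of the gene were above the level in 0 cells.

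Kcnip3 encodes KChIP3, which is also known as calsenilin and as the transcriptional repressor DREAM. It was detected in 11 of 26 cells (42.3%, interval 23.4 to 63.1%), with a median signal of 2980 where detected. Its signal was 17 in the E19 cell and 30 and 24 in the P4 pNdrg4 cells. The P5 pSynapsin cells had 3722, 2980, 2952 and 64, and the cultured P5 pNdrg4 cells had 1657, 1147, 773, 498 and 20. The pSynapsin cells were high but for E4, and the pNdrg4 cells were spread around the detection level, 2 above it and 2 not far below it. The cells with no culture stated ranged from 11 through a median of 32 to 10872, with 3 of 10 detected. The P8 pSynapsin cells had 3646 and 1829, and the P8 pNdrg4 cells had 5182 and 33. Kcnip3 was not detected in the P4 cells, where both had Kcnip1, and was detected in 3 of the 4 P8 cells, where none had Kcnip1. A second probe set was above the level in 3 cells, all of them among the 11. Its log2 signals had a Pearson correlation of 0.51 with those of the probe set used over the 26 cells.

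Kcnip2 was detected in 1 of 26 cells (3.85%, interval 0.0973 to 19.6%), the P5 pSynapsin cell E3, at a signal of 5719. The next highest signals were 542 in P8 pSynapsin cell B3 and 429 in cell A6 with no culture stated. Kcnip4 was likewise detected in 0 of 26 cells, with the same limits of 13.2% and 11.5%. Its highest signal was 875, in cell B3 with no culture stated, and the next was 68.

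Dpp6, the gene of the auxiliary subunit DPP6, was detected in 12 of 26 cells (46.2%, interval 26.6 to 66.6%), with a median signal of 5746 where detected. Its signal was 99 in the E19 cell and 321 and 72 in the P4 pNdrg4 cells. The P5 pSynapsin cells had 6749, 6088, 5404 and 831, and the cultured P5 pNdrg4 cells had 8183, 1283, 629, 259 and 138. The pSynapsin cells were high but for E3, and the pNdrg4 cells spread over the whole range between. The cells with no culture stated ranged from 7 through a median of 457 to 11511, with 3 of 10 detected. The P8 pSynapsin cells had 6250 and 3730, and the P8 pNdrg4 cells had 8598 and 2521, so all 4 P8 cells were above the level. With the probe sets used, Dpp6 was graded where Kcnip1 and Kcnd3 were not, with 8 cells between 200 and 1000. With other probe sets this turned round for Dpp6 and Kcnip1. Another Dpp6 probe set had no signal between 138 and 1157. The second Kcnip1 probe set had signals between 200 and 1000, such as 554 in P4 pNdrg4 cell B4 and 828 in cell A5 with no culture stated.

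The choice of probe set mattered for Dpp6. Its other sensitive probe set was above the level in 11 cells, of which 5 were among the 12 and 6 were not, and the log2 signals of the 2 probe sets had a Pearson correlation of 0.12 over the 26 cells. With either probe set taken as detection, 18 cells had Dpp6.

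Dpp10 was detected in 1 of 26 cells (3.85%, interval 0.0973 to 19.6%), the cultured P5 pNdrg4 cell C6, at 2486. The next highest signal was 217, in cell A2 with no culture stated. C6 was not among the cells with Dpp6, where it had 259, so no cell had both DPP-like genes with the probe sets used.

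**Figure D2:**
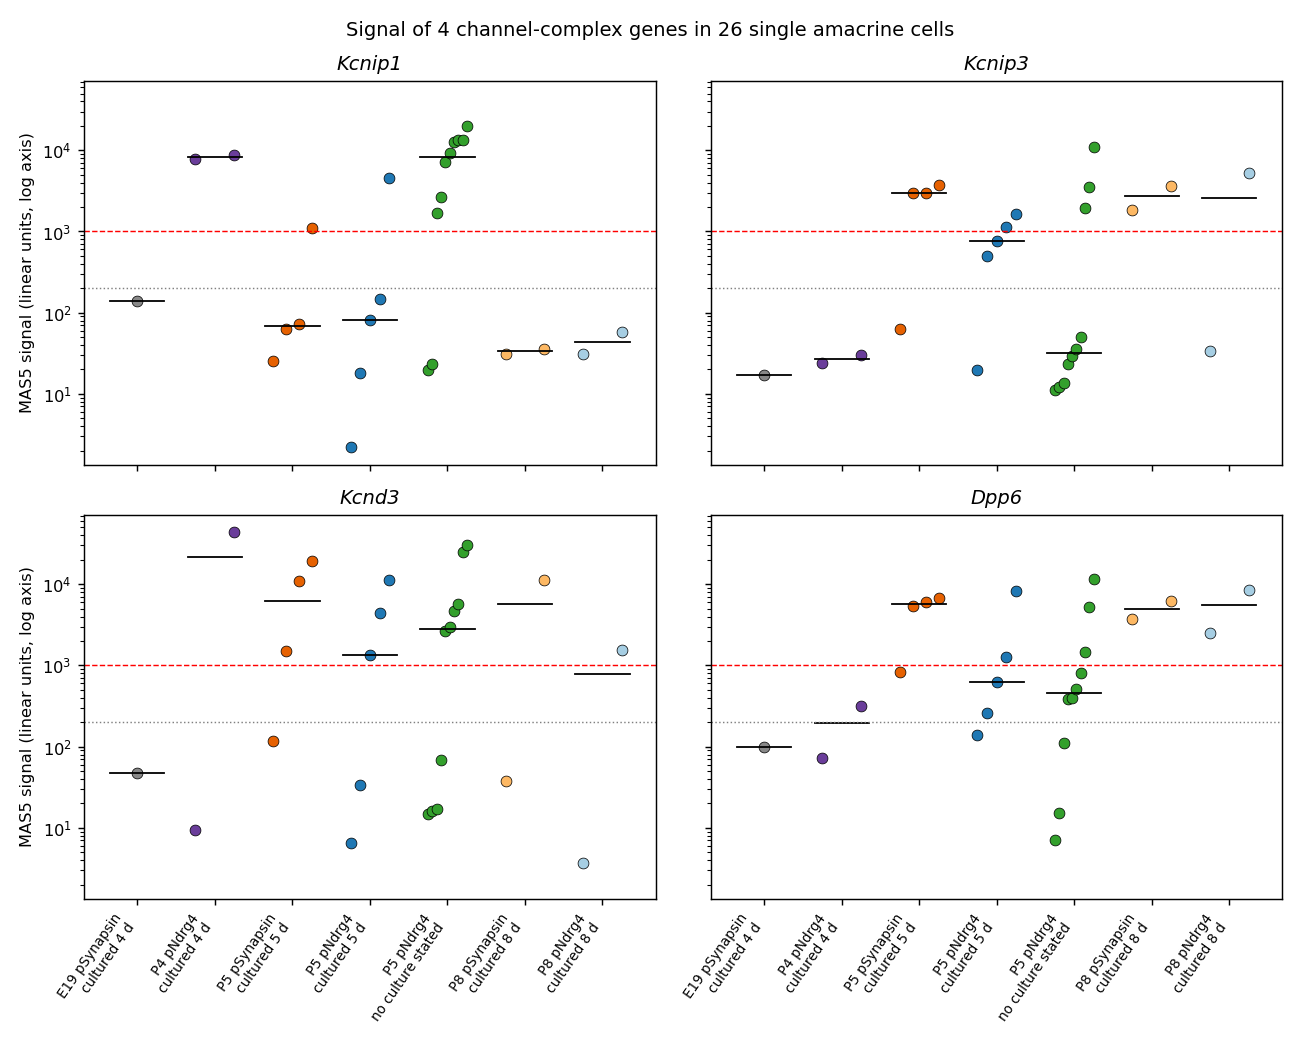
Signal of Kcnip1, Kcnip3, Kcnd3 and Dpp6 in every cell, by group, on a log axis. Each point is 1 cell, the black bar is the group median, the dashed line is the detection level of 1000 and the dotted line the floor of 200. With the probe sets used, Kcnip1 leaves an empty band between 148 and 1093 and Kcnd3 between 116 and 1345, while Dpp6 has 8 cells between the lines.

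The combinations of subunits differed widely between cells. A KChIP gene was detected in 20 cells, a Kv4 gene in 17 and a DPP-like gene in 13. A KChIP and a Kv4 gene were detected together in 14 cells, a KChIP and a DPP-like gene in 9, and a Kv4 and a DPP-like gene in 8. All 3 kinds were found in 6 cells, which were P5 pSynapsin cell E1, cultured P5 pNdrg4 cell C6, cells A1 and A7 with no culture stated, P8 pSynapsin cell B3 and P8 pNdrg4 cell A2. With either Dpp6 probe set the number was 11. The E19 cell, in which 2307 genes were detected and Pax6 was lowest of the 26 cells at 2034, had none of the 9 genes. Of the other cells 6 had 1 gene, 10 had 2, 8 had 3 and 1 had 4, the last being E3 with Kcnip1, Kcnip2, Kcnip3 and Kcnd3.

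Among the KChIP genes, 9 cells had Kcnip1 alone and 8 had Kcnip3 alone. Both were found in cells A2 and A5 with no culture stated and in E3, and 6 cells had no KChIP gene. The phi coefficient of detection is 1 for full overlap. It is -1 only where every cell has either gene but not both, so genes never detected together can have a phi above -1. For Kcnip1 and Kcnip3 it was -0.32 over 26 cells. Cell A5 had 13272 for Kcnip1 and 10872 for Kcnip3, so high signals of both did occur in 1 cell with the probe sets used. The second probe sets had 828 for Kcnip1 and 104 for Kcnip3 in A5, both below the level. In A2 and E3 the second Kcnip3 probe set had 117 and 9, so it reached the level in none of the cells with both genes.

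With the probe sets used, the lowest overlap among the 4 common genes was between Kcnip1 and Dpp6. They were detected together in 2 cells, Kcnip1 without Dpp6 in 10, Dpp6 without Kcnip1 in 10 and neither in 4 (phi -0.55, Pearson r of log2 signals -0.47). The 2 shared cells, A7 with 9184 for Kcnip1 and 11511 for Dpp6 and A1 with 1667 and 5228, both had no culture stated. Within the 10 cells of that group phi was -0.22, and in the other 16 cells, where 0 had both, it was -0.65. With any probe set of either gene counted, 6 cells had both and phi was -0.39. With the other sensitive Dpp6 probe set alone, 5 cells had both, phi was -0.01 and Pearson r was 0.03. The low overlap was thus seen with 1 of the Dpp6 probe sets and not with the other. Kcnip1 and Kcnd3 were detected together in 8 cells and Kcnip3 and Kcnd3 in 7, with weak coefficients. Kcnip3 and Dpp6 shared 6 cells (phi 0.14), but phi was -0.43 within the cells with no culture stated, where 0 had both, and 0.38 in the other 16. Kcnd3 and Dpp6 shared 6 cells (phi -0.14), and 12 with any probe set counted (phi 0.27), so the sign of that pair turned on the probe set.

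These coefficients are over cells that share groups and depth. The median number of genes detected was 2527.5 in the cells with Kcnip1 and 3423 in those without it, 3465.5 in the cells with Dpp6 and 2493 in those without, and 3463 in the cells with Kcnip3 and 2584 in those without. For Kcnd3 the medians were nearly equal, 3252 with and 3257 without. Rod photoreceptor markers, of which 13 of 15 were measured, summed to a median of 5096 in the cells with Kcnip1 and 16738 in those without it, and to 16738 with Dpp6 and 4271 without. They summed to 16374 in the cells with Kcnip3 and 6449 in those without. Of these markers Pde6a, Gngt1 and Prph2 were not detected in any cell. The part of depth and of rod markers in the overlaps was not tested.

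**Figure D3:**
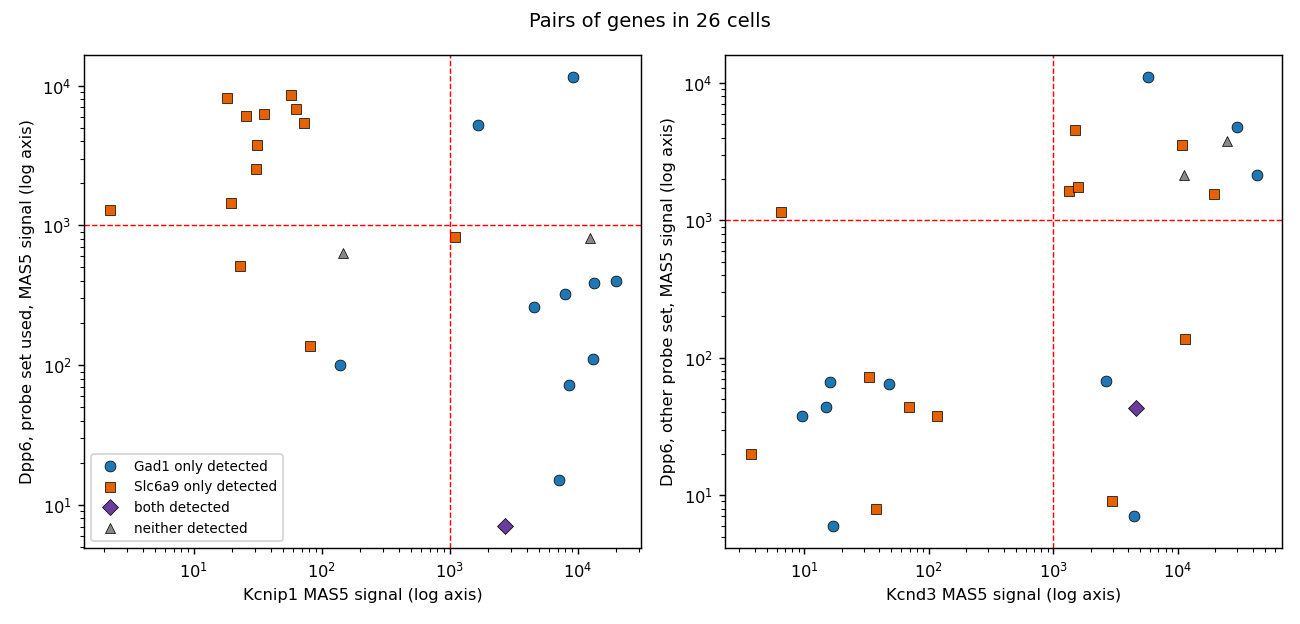
Left, signal of Dpp6 against that of Kcnip1, and right, signal of the other Dpp6 probe set against that of Kcnd3, in 26 cells on log axes. Each point is 1 cell, its shape and colour give the detection of Gad1 and Slc6a9, and dashed lines mark the level of 1000. On the left 2 cells are past both lines, and on the right 10 of the 11 cells above the horizontal line are also past the vertical line.

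Set beside the transmitter genes of the cells, the family split as follows. Gad1, which makes GABA, was detected without Slc6a9, the glycine transporter gene, in 10 cells, Slc6a9 without Gad1 in 13, both in 1 and neither in 2. In the 10 cells with Gad1 alone Kcnip1 was detected in 9, Kcnd3 in 5, Dpp6 in 2 and Kcnip3 in 1. In the 13 cells with Slc6a9 alone Dpp6 was detected in 10, Kcnip3 in 8, Kcnd3 in 7 and Kcnip1 in 1. Kcnd3 was thus spread over both classes. The split of Kcnip1 follows from how it was chosen. The median number of genes detected was 2467.5 in the cells with Gad1 alone and 3468 in those with Slc6a9 alone.

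The overlap of Kcnip1 with Gad1 (10 cells with both, 2 with Kcnip1 alone, 1 with Gad1 alone) is the value by which Kcnip1 was chosen, and its low overlap with Slc6a9 (2 cells with both, phi -0.69) follows in part from the same choice because Gad1 and Slc6a9 rarely met in a cell. The exceptions were the E19 cell, with Gad1 at 7943 and Kcnip1 at 138, cell A2 with no culture stated, with Kcnip1 at 12544 and Gad1 at 59, and E3, with Kcnip1 at 1093 and Gad1 at 2. Kcnip3 was detected with Gad1 in 1 cell, A5, and without it in 10 (phi -0.58). With Slc6a9 it shared 8 cells (phi 0.32). That phi was 0.05 within the 10 cells with no culture stated and 0.40 in the other 16. Dpp6 was detected with Slc6a9 in 10 of its 12 cells (phi 0.55). This came from the groups other than the cells with no culture stated, in which phi was 0.76 over 16 cells, while within the 10 cells with no culture stated it was 0.05 and 1 of 3 cells with Dpp6 had Slc6a9. For Dpp6 and Gad1 phi was -0.65 in the 16 cells and -0.05 in the 10. With any probe set counted, phi of Dpp6 and Slc6a9 was 0.39 over all cells. With the other sensitive Dpp6 probe set alone, phi was 0.01 with Slc6a9 (6 cells with both, Pearson r -0.05) and -0.26 with Gad1.

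The first comparison was of culture, between the P5 pNdrg4 cells cultured for 5 days and those with no culture stated. Kcnip1 was lower in the cultured cells. It was detected in 1 of 5 cultured cells, against 8 of 10 with no culture stated, and its mean log2 signal was 8.54 ± 2.01 in the cultured cells (SD, n = 5 cells) and 11.87 ± 2.48 in the others (SD, n = 10 cells), with signals under 200 raised to 200. The difference of -3.32 was larger than the SD of either group, yet the groups overlapped, with C6 at 4532 among the cultured cells and A1, A6, B1 and B4 below it among the others. Without 1 cell at a time it ran from -4.22, without C6, to -3.05, without A8. Taken as the median over the 4 probe sets of the gene in each cell, of which 2 were silent, it was -1.75.

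Kcnip1 was the 1 gene of the family past a difference of 2 log2 units in that direction, and 1.48% of the 8571 genes detected in at least 2 cells were, or 8.84% in either direction. The median difference of all those genes was 0.31. Gad1, with which Kcnip1 was chosen to go, was detected in 1 of 5 cultured cells and 7 of 10 with no culture stated, and its difference was -2.66. Because of that choice, Kcnip1 past 2 is no result about the members. Among the cells with Gad1, Kcnip1 was detected in 1 of 1 cultured cell, C6 at 4532, and in 7 of 7 cells with no culture stated, from 1667 in A1 to 19953 in A8. That overlap is the value by which Kcnip1 was chosen, so it is given as a description only. Since the groups also differed in their share of cells with Gad1, culture and the make-up of the groups by class cannot be told apart for this gene. Summed rod markers ran from 2488 to 6513 in the cultured cells and from 413 to 85822 in the others, and their part in the result was not tested.

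The other members differed by less than the spread between cells. Kcnip3 was detected in 2 of 5 cultured cells and 3 of 10 others (difference 0.45), Kcnd3 in 3 of 5 and 6 of 10 (-0.51), and Dpp6 in 2 of 5 and 3 of 10 (0.13). Kcnd1 was detected in 0 of 5 and 2 of 10 cells, a difference of -1.24 that came from cells A7 and B1. Signals under 200 have no order here, so differences that involve them depend on that floor.

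The second comparison was between reporters, pSynapsin and pNdrg4, among P5 cells cultured for 5 days. Dpp6 was higher in the pSynapsin cells, at a mean log2 signal of 11.85 ± 1.44 (SD, n = 4 cells) against 9.66 ± 2.15 in the pNdrg4 cells (SD, n = 5 cells), and was detected in 3 of 4 and 2 of 5. The difference of 2.19 was just above the SD of the pNdrg4 cells, and the groups overlapped, since pNdrg4 cell C1 had 8183 and pSynapsin cell E3 had 831. Dpp6 was the 1 member past 2 in that direction, where 6.02% of genes were, or 10.3% in either direction. The difference was under 2 when D3 (1.69), C6 (1.78), E2 (1.90) or E4 (1.95) was left out, and was 1.85 with the highest probe set in each cell. Summed rod markers were also apart between these groups, from 7660 to 83825 in the pSynapsin cells and from 2488 to 6513 in the pNdrg4 cells, and their part in the result was not tested.

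Kcnip3 was detected in 3 of 4 pSynapsin and 2 of 5 pNdrg4 cells with a difference of 1.23, and Kcnd3 in 3 of 4 and 3 of 5 with a difference of 1.21. The Kcnip3 difference was just above the SD of the pNdrg4 cells (1.18) and within that of the pSynapsin cells (2.01). That of Kcnd3 was within the SD of either group. Left without E4, Kcnip3 differed by 2.23, and Kcnd3 by 2.48 without E2 and 2.01 without D6. Kcnip1 was detected in 1 of 4 and 1 of 5 cells (difference -0.29). Kcnip2 differed by 1.21, all of it from cell E3.

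At P8 the same comparison had 2 cells on each side and no member past 2, where 21.0% of genes were. Dpp6 was detected in all 4 cells and differed by 0.05. Kcnip3 differed by 1.34, from 3646 and 1829 in the pSynapsin cells and 5182 and 33 in the pNdrg4 cells, and Kcnd3 by 1.43, from 11371 and 38 in the pSynapsin cells and 1568 and 4 in the pNdrg4 cells. Both rested on single cells, as Kcnip3 differed by 3.69 without pNdrg4 cell A2, and Kcnd3 by 4.34 without pSynapsin cell B4 and 2.91 without A2. The sign turned for Kcnip3 without pNdrg4 cell A1, at -1.0, and for Kcnd3 without pSynapsin cell B3, at -1.49. Kcnip1 was under 200 in every cell of both groups.

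The last comparisons were of age, P8 against P5, within each reporter among cultured cells, where days in culture increased with age. In pNdrg4 cells Dpp6 was higher at P8, with a mean log2 signal of 12.18 ± 1.25 (SD, n = 2 cells) against 9.66 ± 2.15 at P5 (SD, n = 5 cells), and was detected in 2 of 2 and 2 of 5 cells. The difference was 2.53, above the SD of either group, and the groups overlapped through P5 cell C1. It was 1.64 without P8 cell A1, 1.57 with the highest probe set in each cell and 1.68 with the median over probe sets, all under 2. Dpp6 was the 1 member past 2 in that direction, where 10.2% of genes were, or 16.1% in either direction. In pSynapsin cells its difference was 0.39, and no member was past 2, where 16.0% of genes were.

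Beside the Dpp6 values, summed rod markers ran from 36885 to 49068 in the P8 pNdrg4 cells and from 2488 to 6513 in the P5 pNdrg4 cells, and 8 of the 9 rod genes detected in at least 2 cells were past 2 in that direction. Muller glia markers, of which 10 were measured, summed to between 16221 and 33036 at P8 and between 688 and 24062 at P5. Their part in the result was not tested. The same 5 cultured P5 pNdrg4 cells stood in the culture, the P5 reporter and the pNdrg4 age comparison, so these results are not independent of each other.

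Kcnip3 differed by 0.58 with age in pNdrg4 cells and by 0.69 in pSynapsin cells, and Kcnd3 by -1.12 and -0.90. In pNdrg4 cells the Kcnip3 value was 2.93 without P8 cell A1 and -1.77 without P8 cell A2, so 1 cell set its sign, and Kcnd3 was -2.61 without A2. In pSynapsin cells Kcnd3 was 2.01 without P8 cell B4, -3.82 without P8 cell B3 and -2.18 without P5 cell E2. Kcnip1 was detected in 0 of 2 P8 and 1 of 5 P5 pNdrg4 cells and in 0 of 2 P8 and 1 of 4 P5 pSynapsin cells. Counting genes at the floor in both groups as overlapping, all 9 genes overlapped between groups in all 5 comparisons. Genes at the floor in both groups overlap by construction, and 5 of the 9 passed the filter of detection in at least 2 cells. The share of all genes that overlapped was not counted, so the overlap is no result about the members.

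**Figure D4:**
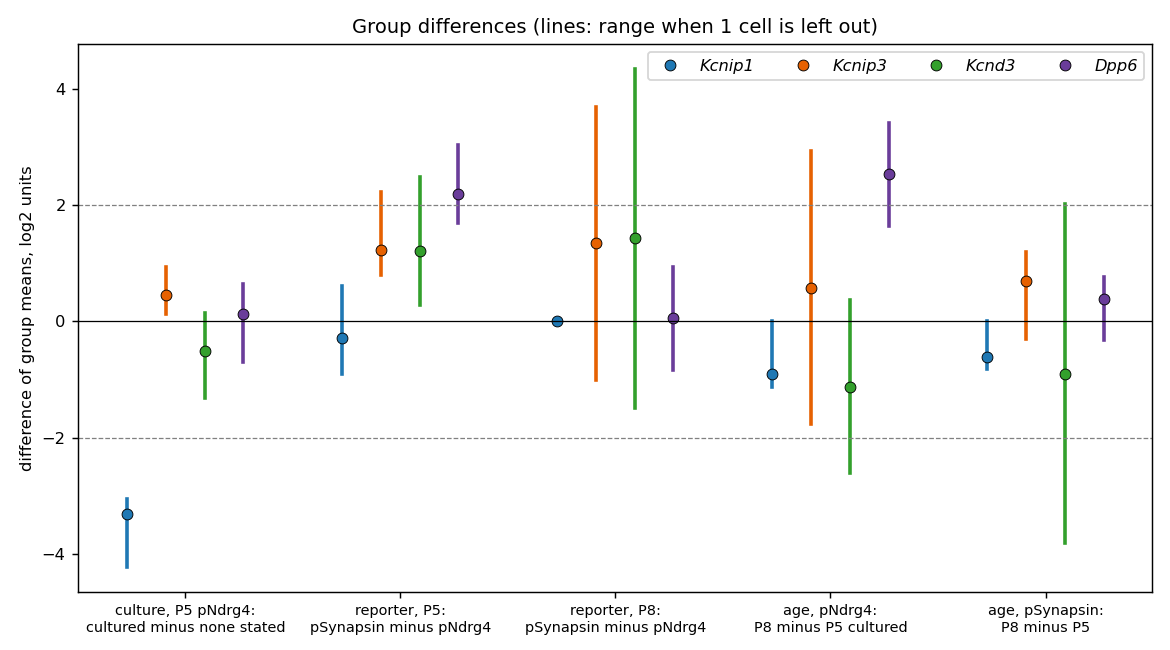
Difference of group means of log2 signal for Kcnip1, Kcnip3, Kcnd3 and Dpp6 in 5 comparisons. Points are the differences, vertical lines run from the lowest to the highest value when 1 cell at a time is left out, and dashed lines mark 2 and -2. Kcnip1 under culture is the point whose line stays past 2. Many other lines cross 0, among them those of Kcnip3 and Kcnd3 at P8 and with age, and of Dpp6 under culture.

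The genes most like each of the 4 common members were ranked by the Pearson correlation of log2 signals over the 26 cells, among 6676 other genes detected in at least 4 cells. These are descriptions over cells that share groups and depth. For Kcnip1 they were Gad1 (r 0.79), Lrrn3 (0.78), C1ql2 (0.76), Lingo1 (0.71) and Tmsb10 (0.67). All 7 cells with C1ql2, a secreted protein of the C1q family, and all 9 with Lingo1, a leucine-rich repeat membrane protein, were among the 12 with Kcnip1.

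For Kcnip3 the closest were Tmem208 (r 0.76), Acad8 (0.72), Fxyd7 (0.69), Fbxo38 (0.69) and Ccdc97 (0.68). Tmem208 was detected in all 11 cells with Kcnip3 and in 3 others, and Fxyd7, a regulator of the sodium pump, in 5 cells, all with Kcnip3. For Kcnd3 they were Gpbp1 (0.67), Chst10 (0.67), Clasp1 (0.65), Wdr75 (0.65) and Nsg1 (0.65). The 5 cells with Chst10, a sulfotransferase of the HNK-1 carbohydrate, and the 8 with Wdr75 all had Kcnd3. For Dpp6 they were Soga1 (0.70), Wbp2 (0.68), Syp (0.67), Pxylp1 (0.67) and Cdc7 (0.65), and Syp, the synaptic vesicle protein synaptophysin, was detected in 10 of the 12 cells with Dpp6 and in 3 others.

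Other channel genes and partners were described by counts. Of the other A-type and beta-subunit genes 5 of 6 were measured and all 5 were detected in at least 1 cell. Kcna4, the A-type channel gene of the Shaker family, was detected in 3 cells, with its highest signal of 29870 in cell A8 with no culture stated. The beta subunits were detected in 4 cells (Kcnab1), 5 cells (Kcnab2) and 9 cells (Kcnab3). Of 14 delayed rectifier genes 11 were measured and 5 detected in at least 2 cells, led by Kcnc1 in 5 cells, with Kcna1, Kcna2 and Kcnc2 in 3 each. Kcne1 was detected in 1 cell, and the other 3 KCNE genes measured in none.

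The calcium sensors related to KChIPs were all 9 measured and 7 were detected. Ncs1 was found in 11 cells, Hpca, Hpcal1 and Vsnl1 in 6 each, Rcvrn, which is also a rod marker, in 5, and Ncald in 3. Of 6 peptidase genes that share the DPP name or the family of DPP6, Dpp9 was found in 9 cells, Dpp3 and Dpp8 in 7 each and Dpp7 in 2, while Dpp4 and Fap were detected in none. Of 16 trafficking, scaffold and kinase partners of Kv4, 12 were measured. Prkaca, a catalytic subunit of protein kinase A, and the actin cross-linker Flna were found in 21 cells each, Dlg2, the scaffold PSD-93, and Prkacb in 19 each, Prkcb in 15, Camk2b in 13 and Camk2d in 10.

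In the culture comparison 1 of the 4 other A-type and beta-subunit genes detected in at least 2 cells and 2 of the 9 such partners were past 2 in the higher direction, where 7.36% of all genes were, and none of the 7 calcium sensors was. At P8 against P5 in pNdrg4 cells 3 of the 7 calcium sensors and 2 of the 9 partners were past 2 in the higher direction, where 10.2% of all genes were. The calcium sensors include Rcvrn, and rod genes as a list were higher at P8 in the same comparison, as given above. Under culture the median difference was 0.03 for the A-type and beta-subunit genes, 0.12 for the partners and 0.39 for the calcium sensors, beside 0.31 over all genes.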

How the data were processed

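Each of the 26 samples was 1 cell on 1 array. The authors deposited signal intensity on a linear scale for each probe set, computed with MAS5 per the submitters' processing notes, with a version not given in the sources used here. Leaving out 2% of values at both extremes, every deposited array averages 500, so no further scaling was applied. Amplification over 35 PCR cycles, per the labels' protocols, can lose or inflate rare transcripts, so a signal below the level does not show absence. No detection calls were used.

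Python 3.11.15 was used, with the packages matplotlib 3.10.9, scipy 1.17.1, pandas 2.3.3 and numpy 2.4.6. Of 45101 probe sets, 34958 belonged to 1 gene by the platform annotation and gave 18194 genes, while 932 belonged to several and were not used. Differences are of group means of log2 signal after a floor of 200, over the 8571 genes that 2 or more cells had, and 2 log2 units was the size used to count genes. Each group counted as 1 sample, so no test was run. Intervals are exact Clopper-Pearson and cover counting error only. The code was tested on simulated data.

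The members, the lists and the comparisons were chosen with earlier results of these data known. Named genes were the 9 members, list genes detected in 3 or more cells or defining a role, and the 5 genes most correlated with each member detected in at least 4 cells. Genes outside that rule, such as Dpp7 and Kcne1, were named after their values were seen. Alternatives covered detection at 500 and 2000, floors of 50 and 500, the highest or the median probe set, quantile normalization, scaling to the 75th percentile, group medians, other filters, a difference of 1, other measures of likeness and leaving out each cell. Counting any probe set in overlaps, and splitting overlaps by group, were chosen after seeing the data. Promoter sequences are from RefSeq, GRCm38.p6. The arrays name no genome build.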

Additional observations from a re-analysis of the deposited data

Results flagged for a closer look

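Within groups of 4 to 10 cells, 19 gene and group combinations with a signal above the floor of 200 were examined. The log2 scale was used, with signals under 200 raised to 200. A highest or lowest cell was flagged where its gap to the next cell took up more of the group's range than Dixon's 95% limit allows. In all, 10 were found. Chance alone gives about 1 in 20 for values without such jumps, and these signals are detected in some cells and near 0 in others, so the limit is often passed. Where only 1 cell of a group is above the floor, that cell passes the limit by construction. This was so for all the flagged values but Kcnip3 in E4 and Dpp6 in E3.

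Of the 10 values, 5 were in P5 pSynapsin cells. In E3 Kcnip1 was highest of 4 at 1093, Kcnip2 was highest at 5719 and Dpp6 was lowest at 831. In the same group Kcnip3 was lowest in E4, at 64, and Kcnd1 was highest in E1, at 572. Among the 5 cultured P5 pNdrg4 cells C6 stood apart with the highest Kcnip1, 4532, and the highest Dpp10, 2486. Among the 10 pNdrg4 cells of P5 without a stated culture Kcnip2 was highest in A6 at 429, Kcnip4 in B3 at 875 and Dpp10 in A2 at 217, all below the detection level of 1000.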

How the results depend on the processing

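No difference past 2 log2 units and no overlap with a correlation of at least 0.4 in size changed sign under the alternatives listed above. The second Dpp6 probe set alone was not among these for differences or overlaps. With it the correlation of Dpp6 with Kcnip1 was 0.03 in place of -0.47. That with Slc6a9 was -0.05 in place of 0.43, so both signs turned. Of the alternative values for the 4 common genes, 301 differences moved by less than the spread between cells and 3 by more, and for detected cells 22 stayed within the counting interval and 3 did not. For the other 5 genes 24 of the differences and 2 of the counts of detected cells moved, while 356 and 28 did not, and of the alternative coefficients for pairs of genes 32 left the range seen on leaving out 1 cell and 38 did not. The median over probe sets lowered detected cells to 6 for Kcnip1 and 0 for Kcnd3, because 2 of 4 Kcnip1 and 3 of 4 Kcnd3 probe sets were above the level in no cell, and the highest probe set raised Dpp6 to 18 cells. A floor of 50 gave the P8 reporter difference of Kcnip1 as -0.10 in place of 0, by construction. Leaving out 1 cell, the age difference of Kcnip3 in pNdrg4 cells ran from -1.77 to 2.93. The count of members past 2 was 1 under culture, 1 between P5 reporters, 0 between P8 reporters and 1 with age in pNdrg4 cells. With a difference of 1 these were 2, 3, 2 and 2. The share of all genes past 1 was not counted, so the counts at 1 are no result about the members. With the median over probe sets the counts past 2 under culture, between P5 reporters and with age in pNdrg4 cells were 0. With the highest probe set the last 2 of these were 0. Quantile normalization gave 1 between P8 reporters, Kcnd3 at 2.16. A floor of 50 put Kcnip3 there at 2.34, and a floor of 500 put Dpp6 between P5 reporters at 1.74. Group medians gave -5.34 for Kcnip1 under culture. Where no construction is named, the cause was not tested. No paired analysis was possible because the result comes from no test and replicate numbers were given in accession order. With 1 to 10 cells a group, 1 cell can set a mean, and signals near the array background have no order.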

Other observations

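The second sensitive probe set of Dpp6 picked out other cells than the probe set used, and this was looked at after its values were seen. It was above the level in 11 cells, and 10 of these also had Kcnd3, the exception being cultured P5 pNdrg4 cell C1. Kcnd3 was detected without it in 5 cells and neither was above the level in 10 (phi 0.58). Over 26 cells the Pearson correlation of log2 signals with Kcnd3 was 0.63, which placed this probe set at rank 8 of 10715. The probe set of Dpp6 used in the report had -0.11 with Kcnd3. The second probe set showed no such relation to the other common members, with 5 cells shared with Kcnip1, 5 with Kcnip3 and 5 with the first Dpp6 probe set. It was above the level in 3 of the 10 cells with Gad1 alone and 6 of the 13 with Slc6a9 alone. The transcript ends that each probe set reads were not analysed here.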
